A study of Mus musculus with 5 samples.

Results

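The cytosolic ribosomal proteins are the proteins of the ribosome that works in the cytoplasm, and they were followed here as mouse macrophages became osteoclasts, large cells with many nuclei that break down bone. Members were the genes whose symbol in the platform annotation is Rpl or Rps followed by a number, or Rplp0, Rplp1, Rplp2 or Rpsa. Pseudogenes, the Rps6k kinases and predicted or clone-named genes were left out, and each gene was read from its highest row among those naming it alone. The rule found 69 of 22180 genes. Of these, 64 lay at or above a level filter of 4.89 on the log2 scale, the median of all row means, as did 12049 genes in all, which are called measured here. The measured members comprised 22 proteins of the small (40S) subunit, 32 of the large (60S) subunit, 3 of the P stalk, 5 paralogs of subunit proteins, and 2 other genes that the symbol rule admits, Rps19bp1 and Rpl6l. The 5 members below the filter were Rps15, Rpl3l, Rpl10l, Rpl22l1 and Rpl32l.

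All cells came from bone marrow of wild-type mice aged 10 weeks and were kept on plastic. M-CSF at 20 ng/ml and RANKL at 30 ng/ml are listed for all 5 arrays alike. The day 0 array is labelled day 0 of differentiation, so this listing does not show that its cells had met RANKL. M-CSF is the growth factor on which macrophages depend, and RANKL is the signal under which they form osteoclasts. The groups were macrophages at day 0, differentiating cells at days 1, 2 and 3, and osteoclasts at day 5, with 1 Affymetrix array per day made from 5 ng of total RNA. Every difference below therefore compares single arrays, no p-value can be given, and the number of arrays limits the precision. No culture kept in M-CSF alone to a later day was among the samples used here, so time in culture and the response to RANKL cannot be told apart. As a check of the labels, all 10 osteoclast markers listed were at least 2-fold higher at day 5 than at day 0, with a median log2 difference of 6.06, and 9 macrophage markers had a median of -0.48. All 7 proliferation markers were at least 2-fold lower at day 5 than at day 0, with a median of -1.97. Of the 13 neutrophil and granulocyte markers with a row, 11 were measured, with a median of 0.09 at day 1 and -1.15 at day 5 against day 0, and their part in the results was not tested. Few markers of the other lineages were measured, namely 5 of dendritic cells, 4 of megakaryocytes and mast cells, 3 of T and NK cells, 3 of stromal cells, 1 of B cells and 1 of erythroid cells.

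Ribosomes consist of a 40S subunit, which reads the mRNA, and a 60S subunit, which joins the amino acids, and each protein is normally present once per ribosome apart from the acidic proteins of the P stalk. Mammalian ribosomal protein mRNAs typically begin with a C followed by a run of pyrimidines, the 5′ terminal oligopyrimidine (TOP) motif, through which mTORC1 and the RNA-binding protein Larp1 control their translation. The arrays measured mRNA and say nothing of translation. Many of these genes have processed pseudogenes that resemble the mRNA closely, so probes for such a gene can also pick up its copies. RefSeq named at least 1 pseudogene for 47 of the 58 core subunit members, 226 in all and 23 for Rps12 alone.

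The sequence around the annotated start is shown for the 10 members in which it begins with C and runs for at least 5 pyrimidines, since this is the feature that ribosomal protein mRNAs are known for. Each line gives 30 bases before the start and 15 bases from the start on, 5′ to 3′, and the capitals mark the pyrimidine run from the first transcribed base. Sequences and positions are those of RefSeq on the mouse assembly GRCm38.p6.
Rpl14: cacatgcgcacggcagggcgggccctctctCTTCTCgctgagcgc
Rpl15: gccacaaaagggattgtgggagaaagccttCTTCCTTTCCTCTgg
Rpl28: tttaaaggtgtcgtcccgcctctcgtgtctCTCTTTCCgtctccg
Rpl35: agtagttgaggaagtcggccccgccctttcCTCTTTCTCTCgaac
Rpl38: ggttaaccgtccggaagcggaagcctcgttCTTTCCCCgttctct
Rplp2: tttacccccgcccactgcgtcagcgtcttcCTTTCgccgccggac
Rps10: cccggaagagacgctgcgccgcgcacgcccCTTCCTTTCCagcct
Rps18: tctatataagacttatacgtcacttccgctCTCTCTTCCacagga
Rps27: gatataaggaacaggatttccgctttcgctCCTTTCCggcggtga
Rps6: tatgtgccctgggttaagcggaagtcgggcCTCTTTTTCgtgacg
The first 5 lie at these positions: Rpl14 at chr9:120571487-120571531 on the plus strand, Rpl15 at chr14:18270972-18271016 on the minus strand, Rpl28 at chr7:4792935-4792979 on the plus strand, Rpl35 at chr2:39005117-39005161 on the minus strand, Rpl38 at chr11:114668550-114668594 on the plus strand. The others are Rplp2 at chr7:141447621-141447665 on the plus strand, Rps10 at chr17:27635230-27635274 on the minus strand, Rps18 at chr17:33955651-33955695 on the minus strand, Rps27 at chr3:90213634-90213678 on the minus strand and Rps6 at chr4:86857353-86857397 on the minus strand. Among 44 core members with a promoter in the table, these 10 are 22.7%, against 3.01% of 27025 genes, 813 in number. Such a start was therefore more frequent in the members, but most annotated member starts lacked it, and no match says only that these letters are not at this annotated position.

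Other letters in the 250 bases before to 50 after the start were searched on both strands. The ETS-type motif CCGGAAG was present in 21 of the 44 members, or 47.7%, against 9.93% of all genes. The YY1-type motif AAGATGG was present in 6 members, or 13.6%, against 7.28% of all genes. The TATA-type motif TATAAA was present in 4 members, or 9.09%, against 15.7% of all genes. At day 1 against day 0 the median log2 difference was 0.17 in the 10 members with a TOP-like start and 0.28 in the 34 without it. Members with the ETS-type motif had a median of 0.16, and the 23 without it 0.29. Members with the YY1-type motif had a median of 0.38, and the 38 without it 0.22. Members with the TATA-type motif had a median of 0.31, and the 40 without it 0.25. These medians describe few genes on single arrays, and the differences between them were not tested.

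At day 1 nearly all ribosomal protein mRNAs were slightly higher than at day 0. Of the 64 measured members, 61 had a difference above 0, against 49.1% of all measured genes. The median log2 difference was 0.30, with the middle part of the members between 0.14 and 0.45, whereas the median of all measured genes was 0.00. The size was small for almost every gene: 1 member, Rps27, rose at least 2-fold, against 2.91% of all measured genes. A difference of at least 0.5, which is 1.41-fold, was seen upward in 15 of 64 members, against 12.6% of all measured genes. No member was lower by 2-fold, against 4.17% of all genes, and none was lower by 0.5, against 12.1%. The signal of day 1 was the highest of the 5 arrays in 48 of 64 members, and in 24.3% of all measured genes. The members thus shared the sign of mostly small differences, as did most mitochondrial ribosomal proteins and translation factors. In a bulk sample, fewer cells of a type and less RNA per cell cannot be told apart, and quantile normalisation hides a shift common to all genes.

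**Figure D1:**
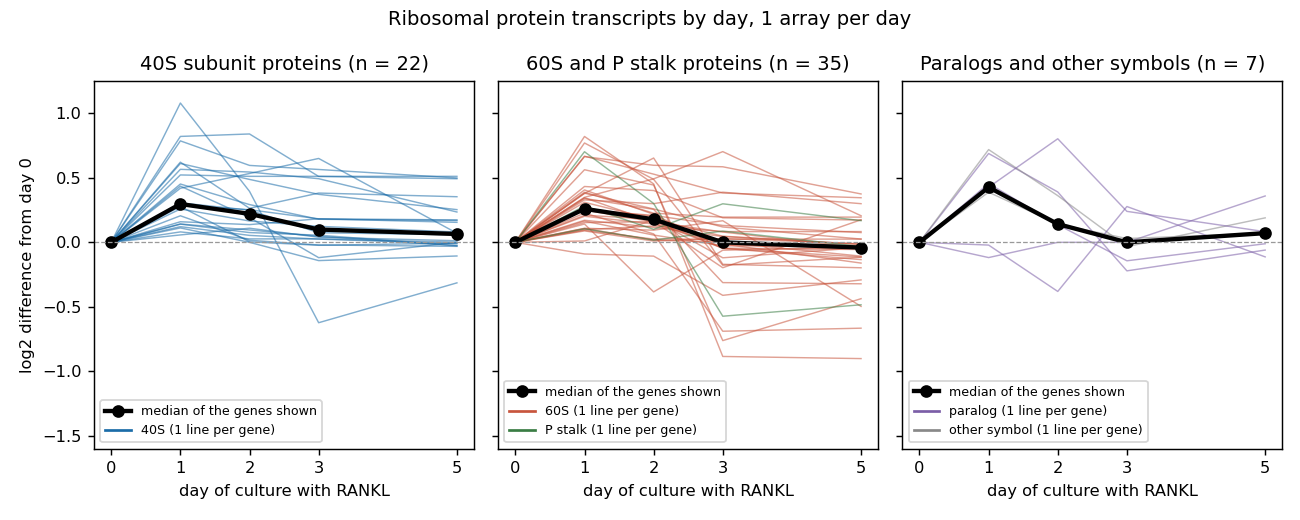
Difference of each member's log2 value from day 0 (y axis) over the 5 sampled days (x axis), in panels for the 40S proteins, the 60S and P stalk proteins, and the paralogs and other symbols, 1 array per day. Thin lines are single genes coloured by role and the black line is their median, which is highest at day 1 (0.30 for the 40S proteins) and close to 0 at day 5 in each panel.

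The scaling of the arrays bears on this result. The 13 reference genes, common housekeeping controls, had a median level 0.17 higher at day 1 than at day 0. The median of their own differences was 0.01, and at days 2, 3 and 5 against day 0 it was 0.00, -0.05 and -0.01. At day 5, 2 of the 13 were at least 2-fold higher. The median level was 0.42, 0.33 and 0.31 higher at days 2, 3 and 5, so the 2 measures differed. Centring the arrays on that median level lowers every gene alike, and the median of all measured genes was then -0.17 at day 1 and -0.31 at day 5 against day 0. The members' median at day 1 was then 0.13, and 43 of 64 were above 0, beside 3965 of 12049 measured genes. No member then reached 2-fold. The rows of 500 genes with 2 measured rows disagreed at day 1 against day 0 with an SD of 0.45, which exceeds the difference of most single members and holds no spread between cultures.

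Among the 40S proteins all 22 were above 0 at day 1, against 49.1% of all measured genes, with a median of 0.30. Rps27, a zinc-binding protein of the 40S subunit, had log2 signals of 5.72, 6.80, 6.11, 5.10 and 5.40 at days 0, 1, 2, 3 and 5. It was 2.11-fold higher at day 1 than at day 0, and the day 3 array was the lowest. Rps7, which is needed to make 18S rRNA, had 7.40, 8.22, 8.24, 7.91 and 7.89. Rps23, which lies at the decoding centre and affects accuracy, had 6.55, 7.33, 7.14, 7.11 and 7.05. For both genes the day 0 array was the lowest and all later arrays lay above it, by 0.49 for Rps7 and 0.50 for Rps23 at day 5. Rpsa, which is also known as the laminin receptor, had 10.78, 11.39, 11.26, 11.15 and 11.03. Rps28 and Rps25, both of the 40S head, were higher at day 1 by 0.62 and 0.57. Rps29, another zinc-binding protein of the head, had 6.51, 7.04, 7.02, 7.02 and 7.02, so the day 0 array alone stood apart.

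Bright 40S rows differed to varying degrees. Rps6, the substrate of S6 kinase, had 13.31, 13.37, 13.42, 13.35 and 13.32. Rps19, the gene most often mutated in human Diamond-Blackfan anaemia, had 11.34, 11.59, 11.50, 11.46 and 11.42. Rps3, which lines the mRNA entry channel, was higher at day 1 by 0.45. The row of Rps14, a protein of the 40S platform, was dim, with a mean of 5.28, and was higher at day 1 by 0.44. Rps15, a protein of the 40S head whose row lay below the filter at a mean of 3.74, had 3.91, 3.55, 3.81, 3.76 and 3.65. Such a row shows only that these probes gave little signal, and row signals do not rank transcripts against each other.

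Among the 60S proteins 31 of 32 were above 0 at day 1, against 49.1% of all measured genes, with a median of 0.26. Rpl34, a protein of the 60S subunit, had 10.35, 11.17, 10.80, 9.47 and 9.45, so day 1 was the highest and days 3 and 5 were the lowest. Rpl37a, a zinc-binding protein, was higher at day 1 by 0.67, and Rpl17, which lies at the exit of the peptide tunnel, by 0.66. Rpl3, which reaches toward the peptidyl transferase centre, had 8.18, 8.75, 8.63, 7.42 and 7.75. The 1 protein of the 60S subunit below 0 was Rpl11, with 5.43, 5.34, 5.33, 5.02 and 5.14. Its partner Rpl5 had 6.80, 7.57, 7.29, 6.62 and 6.69. Rpl5 and Rpl11 enter the 60S subunit together with 5S rRNA and, when ribosome assembly is disturbed, bind and inhibit Mdm2. Their day 1 differences of 0.77 and -0.09 lay far apart, the Rpl11 row being among the 5 dimmest of the measured members. Rpl10a, a protein of the L1 stalk, had nearly the same value at day 1 as at day 0, with a difference of 0.01. Among bright rows, Rpl38, whose loss alters the axial skeleton of the mouse, had 12.61, 12.77, 12.66, 12.58 and 12.57, and Rpl4, with a loop in the peptide tunnel, was higher at day 1 by 0.25. All 7 measured proteins listed for the peptide tunnel were above 0 at day 1, with a median of 0.15. This was near the share of all members, 61 of 64, beside 49.1% of all measured genes.

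The P stalk recruits the elongation factors to the 60S subunit. Its base Rplp0 had 8.11, 8.39, 8.21, 8.41 and 8.28. The acidic protein Rplp1 had the brightest member row, with 13.53, 13.63, 13.54, 13.61 and 13.49. Its dimer partner Rplp2 had 5.75, 6.45, 6.05, 5.17 and 5.26. All 3 were above 0 at day 1, but Rplp2 was lower at days 3 and 5 than at day 0, while Rplp0 was slightly higher. Of 5 measured proteins that join the subunits late in assembly, 5 were above 0 at day 1 with a median of 0.28. Of 14 measured genes that are mutated in human Diamond-Blackfan anaemia, 13 were above 0 with a median of 0.27, and the exception was Rpl11. These shares were near that of all members, 61 of 64, beside 49.1% of all measured genes.

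**Figure D2:**
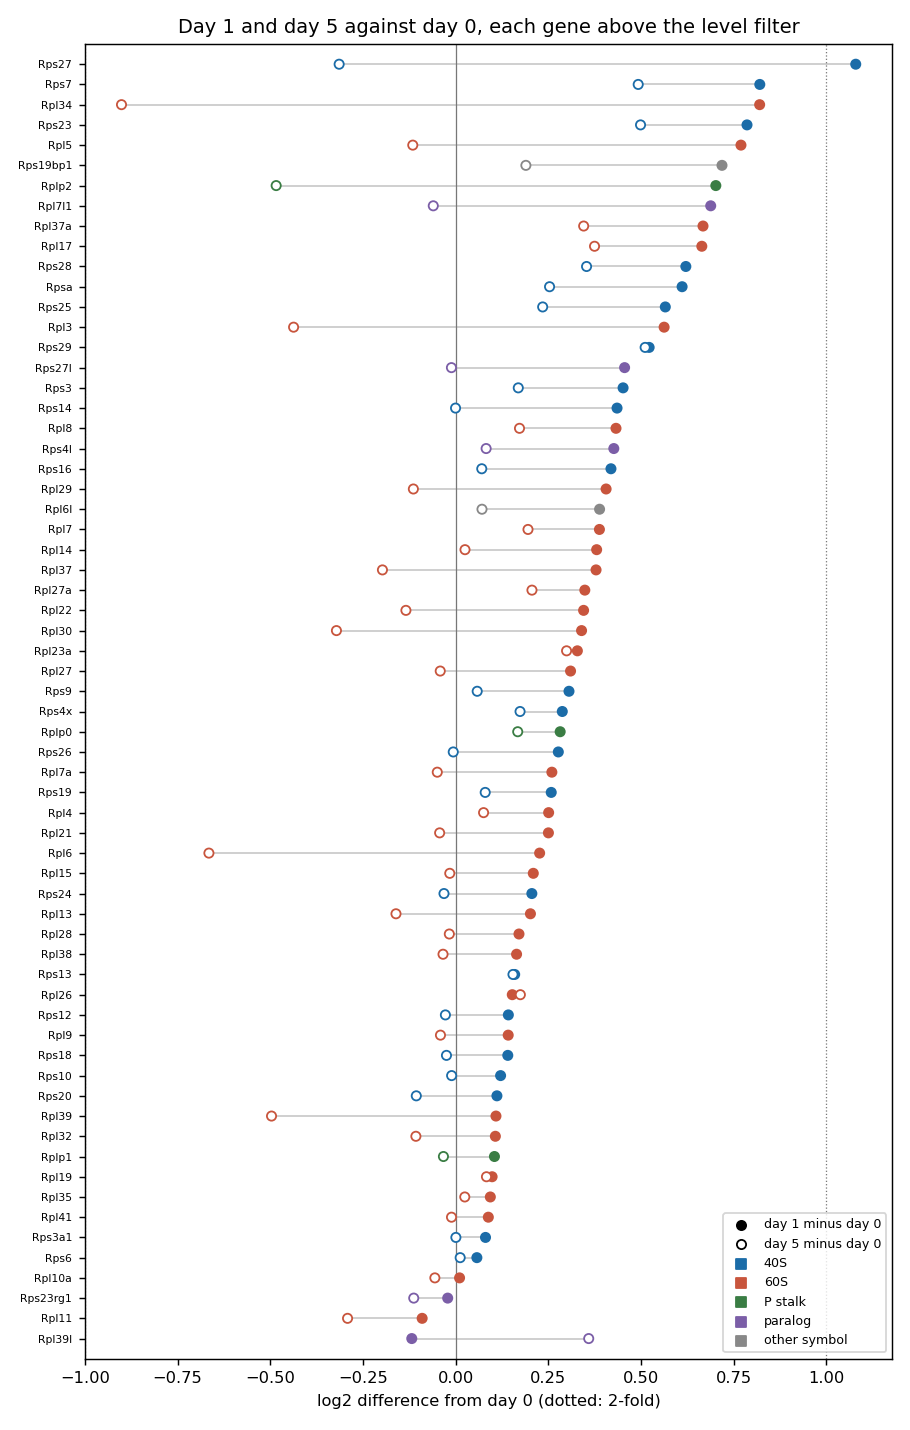
Log2 difference from day 0 (x axis) of every measured member (y axis, ordered by the day 1 difference and coloured by role), 1 array per day. Filled points are day 1 and open points day 5. Only 3 of the 64 filled points lie below 0, while the open points stand on both sides of 0, with 30 above it.

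The paralogs did not share 1 pattern. Rps27l, the paralog of Rps27 and a target of p53, had 9.85, 10.31, 9.99, 9.71 and 9.84, so it was also highest at day 1, by 0.46 over day 0 against 1.08 for Rps27. Rpl7l1 had 8.98, 9.67, 9.37, 8.76 and 8.92, and its day 1 difference of 0.69 stood beside 0.39 for Rpl7. Rps4l, a relative of Rps4x, was higher at day 1 by 0.43, against 0.29 for Rps4x, and was highest at day 2 with 6.86. Rpl39l, known for its expression in male germ cells, had 5.81, 5.69, 5.81, 5.81 and 6.17. Its parent Rpl39, which lines the tunnel, had 5.71, 5.82, 5.81, 5.88 and 5.21. At day 5 Rpl39l was thus higher than at day 0 by 0.36 and Rpl39 lower by 0.50 on the log2 scale, the widest split between a paralog and its parent. Rps23rg1, a copy of Rps23, had 5.09, 5.07, 4.71, 5.36 and 4.97, unlike Rps23. Rpl22, which is not needed for viability in the mouse, had 6.55, 6.89, 6.71, 6.50 and 6.41. Its paralog Rpl22l1 stayed just below the filter, with 4.76, 4.65, 4.42, 4.74 and 4.62. Rpl3l, known from muscle, had a mean of 4.81, and Rpl10l, known from testis, a mean of 3.18. These 3 rows and that of Rpl32l, with a mean of 3.78, lay under the filter and are given as values only.

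Both other symbols above the filter were higher at day 1. Rps19bp1, a nucleolar partner of Rps19 that also binds Sirt1 and is no subunit, had 9.14, 9.86, 9.51, 9.11 and 9.33. Rpl6l was higher at day 1 by 0.39, and Rpl6 by 0.23. Fau, whose product is cleaved to a 40S protein and which the symbol rule leaves out, had 11.34, 11.77, 11.63, 11.58 and 11.56. Its day 1 difference of 0.44 lay within the range of the members, as did its day 5 difference of 0.22.

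After day 1 the levels were lower again. At day 2 against day 1, 54 of 64 members were below 0, against 47.9% of all measured genes, with a median of -0.09. Only Rps27 and Rpl9, with differences of -0.68 and -0.53, were lower by 0.5 or more, 2 of 64 members against 6.74% of all measured genes. Rplp2 and Rpl34 followed with -0.40 and -0.37. The largest upward differences were 0.38 for Rps4l, 0.27 for Rpl37, 0.16 for Rpl10a and 0.14 for Rpl27a. With the arrays centred on the reference genes the median of this step was -0.34, and 2 of 64 members were above 0. On the deposited scale day 2 still stood above day 0, since 59 of 64 members were above 0, against 47.2% of all measured genes. The median was 0.18, and 9 members were higher by 0.5 or more, against 14.3% of all measured genes. This direction depended on the scaling chosen. The median level of the reference genes was 0.42 higher at day 2 than at day 0. Centred on it, which lowers every gene alike, the members' median was -0.24 and 14 of 64 members were above 0. All measured genes had a median of 0.00 before this centring, and the members' distance from them did not change. The reference genes' own differences had a median of 0.00, with 7 above 0 and 6 below, so the reversal rests on that median level.

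At day 3 against day 2 several 60S proteins, Rplp2, Rps27 and 2 paralogs were lower by larger amounts, while Rplp0 and Rplp1 were above 0. Rpl34, Rpl3 and Rps27 fell at least 2-fold, with differences of -1.34, -1.21 and -1.02, so 3 of 64 members did so, against 3.91% of all measured genes. In all, 10 of 64 members were lower by 0.5 or more, against 12% of all measured genes. Among them were Rplp2 at -0.87, Rpl37 at -0.82, Rpl6 at -0.75, Rpl5 at -0.67, Rpl7l1 at -0.61, Rpl30 at -0.57 and Rps4l at -0.56. These shares were close to those of all genes. Rps23rg1, at 0.66, was the 1 member higher by 0.5 or more, against 10.2% of all measured genes. Rpl9, Rpl27a and Rplp0 were next with 0.32, 0.21 and 0.20. The sign was again shared, since 49 of 64 members were below 0, against 45.5% of all measured genes, but the median was only -0.08. The medians were -0.05 for the 40S and -0.14 for the 60S proteins. With the arrays centred on the reference genes the median turned to 0.02 and 33 of 64 members were above 0, so the shared direction of this step depended on the scaling. All 7 proliferation markers were below 0 at the same step, between -2.32 and -0.84 with a median of -1.66, and their part in it was not tested.

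Relative to day 0, day 3 held 6 of 64 members higher by 0.5 or more, against 15.9% of all measured genes. It held 5 members lower by 0.5 or more, against 17.6% of all measured genes, and the median of the members was 0.03. Centred on the reference genes, that median was -0.29 and 11 of 64 members were above 0, while the reference genes' own differences had a median of -0.05. This centring lowered every gene alike by 0.33 at day 3 against day 0. At day 5 against day 3, 43 of 64 members were below 0, against 45% of all measured genes, with a median of -0.03. Rpl39 and Rps16 were lower by 0.5 or more, with -0.66 and -0.58, 2 of 64 members against 2.15% of all measured genes. Rpl27a and Rps23rg1 were at -0.50 and -0.39. Rpl26, Rpl39l, Rpl3 and Rps27 were the highest, with 0.37, 0.36, 0.32 and 0.31. The dimmest measured rows, Rpl27a at a mean of 4.90, Rps23rg1 at 5.04 and Rps16 at 5.22, were among those named here.

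In osteoclasts at day 5 the ribosomal protein mRNAs stood close to their level in macrophages at day 0. The median log2 difference was -0.01, beside 0.00 for all measured genes, and 30 of 64 members were above 0, against 42.8% of all measured genes. No member was 2-fold higher or 2-fold lower, against 6.78% and 6.56% of all measured genes. Only Rps29, at 0.51, was higher by 0.5 or more, 1 of 64 members against 15.5% of all measured genes. Rpl34 at -0.90 and Rpl6 at -0.67 were lower by 0.5 or more, 2 of 64 members against 16.6% of all measured genes. The SD over the members was 0.26, against 0.78 over all measured genes, so the members differed from each other less than genes at large. This was not particular to them, since the SD was 0.26 in translation factors, 0.34 in proteasome subunits and 0.36 in mitochondrial ribosomal proteins.

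The members above 0 at day 5 with the largest values were, after Rps29, Rps23 at 0.50, Rps7 at 0.49, Rpl17 at 0.37, Rpl39l at 0.36, Rps28 and Rpl37a at 0.35 each and Rpl23a at 0.30. Of these 8 genes, 4 encode 40S proteins, as do 22 of all 64 measured members. On the other side, after Rpl34 and Rpl6, stood Rpl39 at -0.50, Rplp2 at -0.48, Rpl3 at -0.44, Rpl30 at -0.32, Rps27 at -0.31 and Rpl11 at -0.29. Rpl6 had 8.10, 8.33, 8.17, 7.41 and 7.44, so its lower level at day 5 was reached by day 3, as for Rpl34. The medians of both subunits stayed near 0, at 0.06 for the 40S and -0.04 for the 60S proteins. With the arrays centred on the reference genes, the members' median at day 5 was -0.32 and 7 of 64 were above 0. All measured genes then had a median of -0.31, with 2667 of 12049 above 0. Between rows of 1 gene the day 5 difference disagreed with an SD of 0.59.

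The picture depended on which early array was used as the start. At day 5 against day 1, 62 of 64 members were below 0, against 46.5% of all measured genes, with a median of -0.26. A fall of at least 2-fold was seen in 3 of 64 members, against 6.73% of all measured genes, namely Rpl34 at -1.72, Rps27 at -1.39 and Rplp2 at -1.19. A difference of -0.5 or below was seen in 12 of 64 members, against 16.5% of all measured genes. The day 1 array takes part both in this difference and in that of day 1 from day 0, so the 2 results are not independent.

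**Figure D3:**
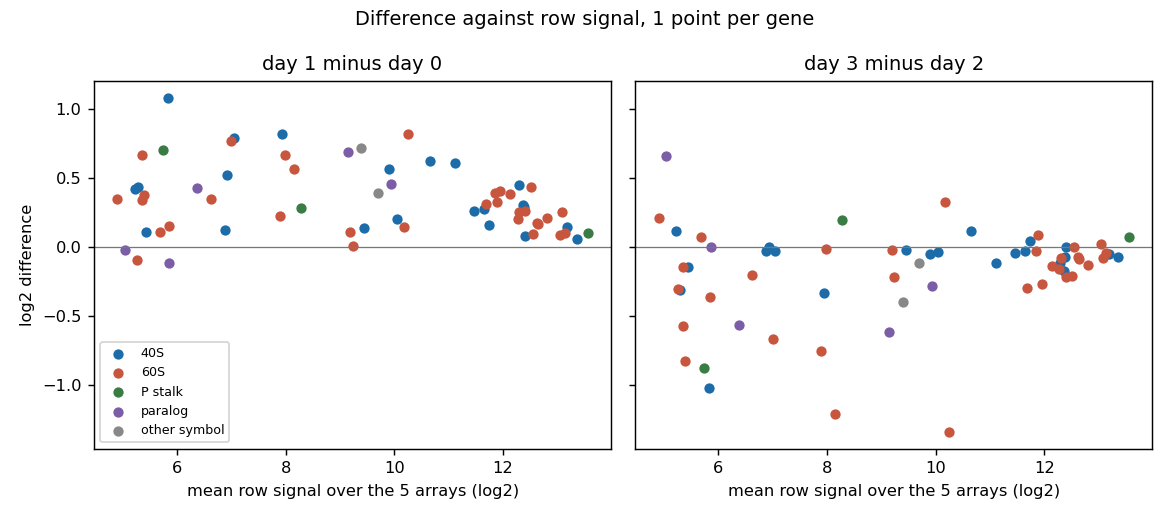
Log2 difference (y axis) against mean log2 signal over the 5 arrays (x axis) for the 64 measured members, 1 point per gene coloured by role, with day 1 minus day 0 on the left and day 3 minus day 2 on the right. On the left 61 points lie above 0, on the right 49 lie below 0, and the scatter is wider among dim rows in both panels.

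Signal strength varied widely among the members and went with the size of the differences. The brightest rows were those of Rplp1, Rps6, Rps12, Rpl19 and Rpl4, with means of 13.56, 13.35, 13.19, 13.14 and 13.09, the first being the highest mean of all measured genes. The dimmest measured rows were those of Rpl27a, Rps23rg1, Rps16, Rpl11 and Rps14, with means of 4.90, 5.04, 5.22, 5.25 and 5.28. A level of 9.14, the 90th percentile of all row means, divided the members into 38 bright and 26 dimmer ones. All 38 bright members were above 0 at day 1, against 55.6% of the 2746 measured genes of that brightness. Of the bright members 5 were higher by 0.5 or more, against 13.1% of bright genes. The median at day 1 was 0.25 in the bright and 0.40 in the dimmer members, of which 23 of 26 were above 0. At day 3 against day 2 the medians were -0.07 and -0.25. Differences were thus smaller where the signal was stronger, and whether the upper end of the signal range limits them was not tested.

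Several members were measured by more than 1 row, which gives a check within the array but not a replicate. The 69 members had 110 rows, 44 of them having 1 row and 25 several. Beyond the highest row of each gene there were 41 rows, of which 7 held the same values as another row of their gene. Of the distinct ones, 30 rows of 21 genes lay above the filter, and 29 of the 30 were above 0 at day 1. Their median difference was 0.38, against 0.25 in the highest rows of the same genes, and 22 of the 30 had a larger difference than the highest row. Their median level was 6.86, against 11.95 in the highest rows. At least 2-fold higher at day 1 were the second row of Rps28 at 1.27, the dimmest of Rpl3 at 1.07, the second of Rps24 at 1.06 and the second of Rps26 at 1.05. At day 5 against day 0 the median of these rows was -0.00 and none was 2-fold apart. The sign at day 1 was thus shared between rows, while the size was not.

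**Figure D4:**
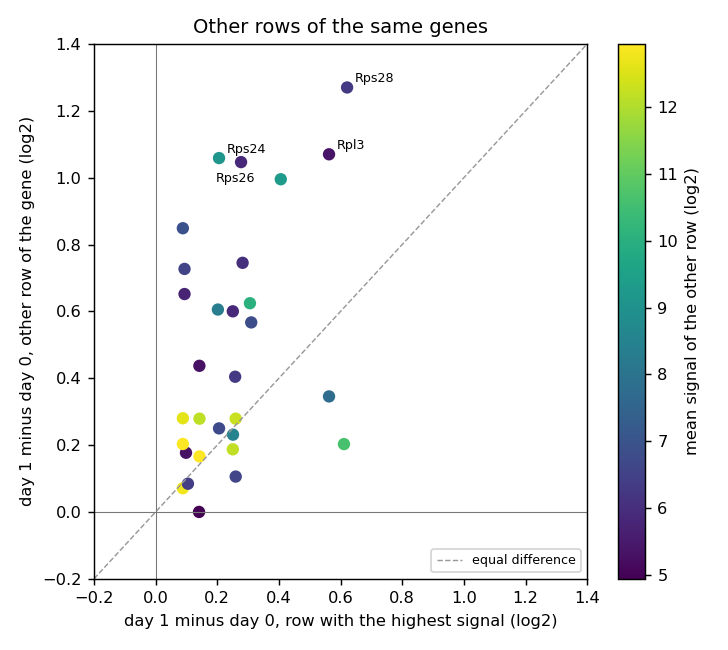
Log2 difference of day 1 from day 0 in the other rows of a gene (y axis) against that in its highest row (x axis), for the 30 distinct rows above the level filter, 1 array per day. Colour gives the mean log2 signal of the other row, and the dashed line marks equal differences. Of these rows 29 lie above 0 and 22 lie above the line, and the 4 with the largest values are named.

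For single genes the rows could disagree. The highest row of Rps28 had 10.33, 10.95, 10.60, 10.71 and 10.69 over the 5 days, and its second row had 6.09, 7.36, 6.92, 5.64 and 5.51. The day 5 difference was 0.35 in the first row and -0.58 in the second. For Rpl3, the row used above had a difference of -1.21 at day 3 against day 2, whereas its other rows had 0.19 and -0.32. At day 5 against day 0 the 3 rows of Rpl3 had -0.44, 0.06 and 0.99. The size of 2-fold was therefore reached in 1 of the 3 rows, and another was lower by less. Rpl41, the smallest ribosomal protein, had 4 bright rows with day 1 differences between 0.07 and 0.28 and a dim row with 0.85. Rpl34 and Rps27 had 1 row each, so no such check was possible for them. The highest and the lowest row of a gene lay a median of 4.87 apart in level, and up to 8.54 for Rps3a1.

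Of the 77 core subunit genes listed, 19 had no row naming them alone and were not analysed as members. For 10 of the genes or groups among them a row shared with gene copies only could be read, an addition chosen after seeing the data. At day 1 against day 0, 9 of these 10 rows were above 0, against 49.1% of all measured genes. Their median was 0.33, between -0.03 for Rpl31 and 0.98 for Rps2. A second such row of Rps2, with a mean of 6.61 beside 6.99, had a difference of only 0.04. The median of the 10 rows was -0.05 at day 3 against day 2 and 0.06 at day 5 against day 0, values near those of the members. Such rows cannot tell the gene from its copies.

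Other groups of protein synthesis, and the proteasome for comparison, were read by the same rule for rows, chosen by symbol or function. Mitochondrial ribosomal proteins, which serve the separate ribosome of mitochondria, were also higher at day 1, with 70 of 71 above 0, a median of 0.47, 31 higher by 0.5 or more and 4 by 2-fold, against 49.1%, 12.6% and 2.91% of all measured genes. Unlike the cytosolic proteins, with a median of -0.01, they had a median of 0.33 at day 5 against day 0, and 58 of 71 were above 0. Translation factors had a median of 0.34 at day 1, with 38 of 40 above 0, and 0.03 at day 5. Proteasome subunits, which degrade proteins, had a median of 0.17 at day 1, with 33 of 37 above 0, and -0.08 at day 5. On the deposited scale most genes of these 3 groups were thus above 0 at day 1. Centred on the reference genes, the day 1 medians were 0.29 for mitochondrial ribosomal proteins, 0.16 for translation factors and 0.00 for proteasome subunits, of which 19 of 37 were then above 0. All measured genes then had a median of -0.17, with 3965 of 12049 above 0. The list of reference genes includes the proteasome subunit Psmb2, so these lists overlap. The median of the mitochondrial ribosomal proteins at day 5 was then 0.02, beside -0.32 for the cytosolic ones and -0.31 for all measured genes. All comparisons with day 0 share that 1 array, and the differences between the groups were not tested.

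**Figure D5:**
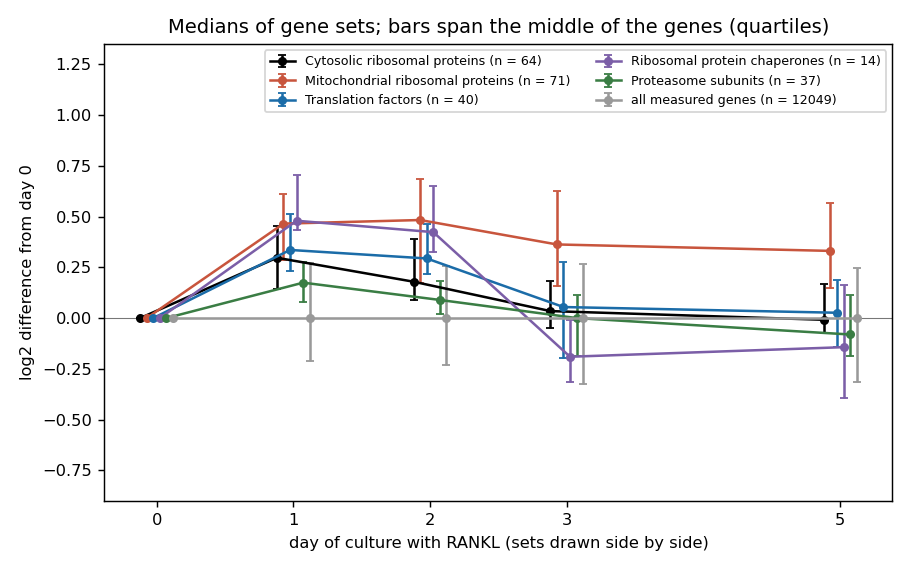
Median log2 difference from day 0 (y axis) by day (x axis) of 5 gene groups and of all measured genes, 1 array per day, with bars from the lower to the upper quartile over genes and n the number of genes. On the deposited scale all 5 groups stand above 0 at day 1. Centred on the reference genes, proteasome subunits are at 0.00 there and all measured genes at -0.17. At day 5 on the deposited scale the mitochondrial ribosomal proteins are at 0.33 and the cytosolic ones at -0.01.

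Among translation factors, Eif4a1, the RNA helicase of cap-dependent initiation, was the 1 gene of 40 that rose at least 2-fold at day 1, against 2.91% of all measured genes. It had 10.18, 11.56, 10.85, 9.84 and 9.74, with differences of 1.38 at day 1 against day 0 and -1.83 at day 5 against day 1. Its relative Eif4a2 had 8.65, 8.78, 8.90, 9.03 and 9.34, so the pair ran opposite ways at day 5 against day 0, with -0.44 and 0.69. Eif6, which keeps the 60S subunit from joining too early, was higher at day 1 by 0.93. Eef1a1, which brings aminoacyl-tRNA to the ribosome, had 13.28, 13.20, 13.27, 13.30 and 13.30, near the top of the signal range. At day 3 against day 2 translation factors had a median of -0.29, and 10 of 40 were lower by 0.5 or more, beside 10 of 64 ribosomal proteins and 12% of all measured genes.

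Other mRNAs known to carry a TOP motif, such as those of elongation factors, Npm1 and Vim, had a median of 0.32 at day 1 and of 0.17 at day 5. At day 1, 13 of 14 were above 0, against 49.1% of all measured genes. This list shares factors with the preceding one. Pabpc1, the poly(A)-binding protein, had 8.17, 8.60, 8.35, 8.15 and 8.15, a course like that of the members, whereas Vim stayed higher, with 0.38 at day 5. Genes of mTORC1 and of TOP mRNA control differed little as a group, with medians of 0.15 at day 1 and 0.02 at day 5. At day 5, 1 of 15 was at least 2-fold higher, against 6.78% of all measured genes. That gene was Eif4ebp1, the inhibitor of Eif4e that mTORC1 switches off, with 9.02, 9.35, 10.02, 10.59 and 10.51. Larp1 had 10.94, 11.39, 11.47, 10.78 and 10.79, and Mtor itself 9.05, 9.20, 9.32, 9.12 and 8.96.

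Proteins that escort ribosomal proteins into the nucleus or finish the subunits had a wider course than the members. All 14 were above 0 at day 1, against 49.1% of all measured genes, with a median of 0.48. Centred on the reference genes, the median was 0.31 with 12 above 0, beside 3965 of 12049 measured genes. At day 3 against day 2 the median was -0.67, with 9 of 14 lower by 0.5 or more and 3 by 2-fold, against 12% and 3.91% of all measured genes. Rps19bp1 is in this list as well as among the members. Grwd1, the chaperone of Rpl3, had 7.94, 8.97, 9.14, 7.74 and 7.76. Tsr2, the chaperone of Rps26, had 7.17, 8.14, 7.59, 6.05 and 6.58. Nob1, the nuclease that makes the end of 18S rRNA, had 8.75, 9.48, 9.44, 8.41 and 8.40. These 3 genes were the ones that fell at least 2-fold at day 3 against day 2, with differences of -1.40, -1.54 and -1.03. Sbds, which helps to release Eif6 from the 60S subunit, ran otherwise, with 9.15, 9.40, 9.51, 9.61 and 9.70. By day 5 the median of the list was -0.14.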

How the data were processed

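Total RNA of 5 cultures, 1 per sampled day, was measured on Affymetrix arrays, and the time given in the labels set the day of each array. The deposited values are log2 signals that the authors computed by RMA (oligo, R 3.4.0), per the submitters' processing notes. RMA corrects background, equalises the arrays by quantiles, which hides a shift of all genes, and summarises probes by median polish, which leaves ties: 1 of 64 members and 8% of measured genes held equal values at day 5 and day 0. Not given in the sources used here are the summary level, the probe annotation and the genome build.

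Of 41345 rows, 23521 named 1 gene, 1814 several and 16010 were not listed. The row with the highest mean stood for each gene. Genes with a mean of at least 4.89 were kept. Each comparison is the later minus the earlier log2 value, called at 1 in size (2-fold) and also counted at 0.5, with no test. All 69 member symbols matched RefSeq. Named are the 8 members with the largest differences in each direction over the whole course, the 4 in each direction per step, the 5 highest and lowest levels, paralogs and other symbols with their parents, and a list of subunits of known interest. In other lists the leading genes are named. Members named because they stood beside these, genes in the rows check, and Pabpc1, Vim, Mtor and Sbds were chosen after their values were seen. The members and the 25 lists were chosen with earlier results of these data known. Lists are described by counts and medians beside all measured genes. The counting was tested on simulated data. The protein comparison that had been planned was not done, since no protein table was used here. Alternatives covered scaling, filter, row rule, call size, member set, days and percentile ranks, and rows shared with copies were added after seeing the data. Python 3.11.15, numpy 2.4.6, pandas 2.3.3 and matplotlib 3.10.9 were used.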

Additional observations from a re-analysis of the deposited data

How the results depend on the processing

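Across the alternatives 148 values stayed within 0.1 on the log2 scale, or within 1.5 times for counts, of those reported, 45 moved further and 1 reversed. Medians of percentile ranks, 5 more values in another unit, kept their sign. Days 2 and 3 against day 0 and the other gene groups were recomputed under centring only, a step added after seeing the data. Centring the arrays on the reference genes gave members' medians of 0.13 at day 1 and -0.32 at day 5 against day 0, and -0.34 at day 2 against day 1. All measured genes then had medians of -0.17 and -0.31 at days 1 and 5 against day 0. Above 0 were 3965 and 2667 of 12049. Such centring shifts every gene alike and leaves the members' distance from all measured genes unchanged. The members' median of day 2 against day 0 reversed to -0.24 with 14 members above 0, though the reference genes' own differences had a median of 0.00. The members' median of day 3 against day 0 was -0.29 with 11 above 0, beside -0.05 for the reference genes' own differences. Members above 0 were then 7 at day 5 against day 0 and 2, 33 and 27 at the steps to days 2, 3 and 5, and 2-fold counts were 0 at day 1 and 1 at day 5. It turned the median of day 3 against day 2 to 0.02, a change of direction of a small value. Centring on the measured genes gave 29 members above 0 at that step. With the lowest row of each gene the day 1 median was 0.41 with 4 genes 2-fold apart. A filter at the 75th percentile left 0 genes 2-fold apart at day 1, and 4, 7 and 9 above 0 at the steps to days 2, 3 and 5. At a size of 0.5 the counts were 15 at day 1 and 3 at day 5 against day 0, and 2, 11 and 2 at the steps to days 2, 3 and 5. The mean in place of the median was -0.19 at day 3 against day 2. Without members above the 99th percentile of signal on any array, 39 were above 0 at day 1 and 18 at day 5. With day 1 in place of day 0, the day 5 median was -0.26, with 3 genes 2-fold apart and 2 above 0. The stricter filter and the signal limit leave fewer members to count, and for the other changes the cause was not tested. No paired analysis was possible because each day has 1 array, and signal near background limits the dim rows.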

Other observations

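Rows named for ribosomal protein pseudogenes were read beside the members. Of 15 such genes, 8 lay above the level filter, with means between 5.27 and 11.76. Rpl31-ps20 had log2 signals of 11.75, 11.86, 11.67, 11.77 and 11.78 at days 0, 1, 2, 3 and 5, and Rpl34-ps2 had 11.46, 11.71, 11.61, 11.61 and 11.51. The row of Rpl34-ps2 was higher at day 5 than at day 0 by 0.04, while that of Rpl34 itself had a difference of -0.90. At day 3 against day 2 the differences were 0.00 for Rpl34-ps2 and -1.34 for Rpl34. At day 1 against day 0, 5 of the 8 were above 0, against 49.1% of all measured genes and 61 of 64 members. The median of the 8 was 0.14, and the largest were Rps15a-ps6 at 0.51 and Rps19-ps3 at 0.43. At day 5 against day 0 their median was 0.02. Which transcripts these probes detect was not tested.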
